A study of Mus musculus with 6 samples.

Results

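Major histocompatibility complex (MHC) class I genes were examined in haematopoietic stem cells (HSCs) of control mice and of littermates in which *Maea* was deleted with *Csf1r*-Cre. The genes were 10 rows of the deposited table of 46959 rows, chosen by symbol. They were the classical heavy chains *H2-K1* and *H2-D1*, the non-classical heavy chains *H2-Q4* and *H2-T23*, the light chain *B2m*, the peptide loading genes *Tap1* and *Tapbp*, the pseudogenes *H2-K2* and *C920025E04Rik*, and the antisense transcript *BC023719*. They were selected with the differences between these same libraries in view, so their levels and differences are given below as a description and without a test.

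A class I molecule is a heavy chain held by beta-2 microglobulin, and it displays a short peptide from inside the cell on nearly every nucleated cell. Peptides cut by the proteasome are pumped into the endoplasmic reticulum by the TAP transporter, and tapasin bridges that transporter to the empty heavy chain until a peptide is bound. The heavy chain genes, the transporter, tapasin and several proteasome subunits lie together in the MHC, and many of them respond to interferon. The region has also gained many near-identical copies, some of them pseudogenes, whose number differs between mouse strains.

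The sample labels name the mice as control or as MaeaCsf1r-Cre, at an age of 8 weeks, and there were 3 libraries of each. For the sequenced mice the paper itself gives a range of young adult ages that includes 8 weeks, so the pools may have differed in age. Each library was made from 2000 HSCs sorted from the bone marrow of a pair of pooled mice. The Cre is driven by the promoter of *Csf1r*, the receptor that defines the macrophage lineage. The study calls mononuclear phagocytes the classical target of this Cre and reports macrophage defects in the bone marrow of these mice. It describes recombination in haematopoietic stem and progenitor cells as well. From a deletion selective for macrophages and from reciprocal transplants, it places the origin of the defects in HSCs and not in macrophages. The *Csf1r*-iCre line had been backcrossed to C57BL/6, and the study used both *Maea* fl/fl mice and *Maea* fl/+ mice with the Cre as control littermates. The sources used here do not state which of these were sequenced. *Maea* itself was at 108, 116 and 123 CPM, reads scaled to a common library size, in the controls (replicates 1, 2 and 3) and at 76.9, 88.6 and 101 CPM in MaeaCsf1r-Cre replicates 1, 2 and 3, over the whole gene, so that every MaeaCsf1r-Cre library was below every control library.

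The scaling of the libraries rested on 32968000 to 39614000 reads in control and 44159000 to 60937000 reads in MaeaCsf1r-Cre libraries, and 3 reads corresponded to 0.0492 to 0.0910 CPM. Of 10 HSC markers, 9 were at 1 CPM or more in all 6 libraries, with a summed CPM of 1124 to 1803 in control and 781 to 1467 in MaeaCsf1r-Cre libraries. That level does not by itself show what the cells were, since most erythroid and all megakaryocyte markers below reached it too. Markers of other cells differed in level. The T cell markers *Cd3g* and *Cd8a*, the NK cell marker *Ncr1*, the B cell markers *Ms4a1* and *Pax5* and the dendritic cell markers *Siglech* and *Cd209a* were listed at 0 in every library, which in this table is not a measured absence. Of the markers of T and NK cells, B cells and dendritic cells, 1 of 9, 1 of 8 and 1 of 7 were at 1 CPM or more in all 6 libraries. The same held for 1 of 6 granulocyte, 4 of 5 erythroid and 5 of 5 megakaryocyte markers. Their summed CPM in control and MaeaCsf1r-Cre libraries was 27.7 to 219 and 4.51 to 114 for granulocytes, 177 to 476 and 208 to 476 for erythroid cells, and 216 to 944 and 283 to 578 for megakaryocytes. For the T and NK cell list the sum was 43.0 to 66.3 and 43.3 to 87.6 CPM. Most of it came from *Nkg7*, at 52.4, 62.2 and 38.7 CPM in control and at 54.9, 85.4 and 39.1 CPM in MaeaCsf1r-Cre replicates 1, 2 and 3. Of 12 macrophage markers, 3 were at 1 CPM or more in all 6 libraries, and the summed CPM of the list was 229.8 to 321 in control and 113 to 263 in MaeaCsf1r-Cre libraries, most of it from *Lyz2*. The complement gene *C1qb* was at 8.98, 3.79 and 5.37 CPM in control and at 0.0328, 0 and 0.474 CPM in MaeaCsf1r-Cre replicates 1, 2 and 3. Other markers of this list overlapped between the groups. *Mrc1* was at 5.40, 0.505 and 9.93 CPM in control and at 0.164, 0.226 and 10.8 CPM in MaeaCsf1r-Cre replicates 1, 2 and 3. *Cd68* was at 6.79, 5.58 and 6.37 against 2.36, 6.30 and 5.95 CPM. The part of such cells in the values below was not tested. In bulk RNA, fewer cells of a type and less RNA per cell cannot be told apart.

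Of the 10 genes, 9 lie on chromosome 17 of GRCm38 (mm10), and *B2m* lies on chromosome 2 from 122147686 to 122153083. In order along chromosome 17 they are *Tapbp* (33915899 to 33929292), *H2-K2* (33974659 to 33978827), *H2-K1* (33996017 to 34000347), *Tap1* (34187553 to 34197225), *H2-D1* (35262730 to 35267499), *H2-Q4* (35379617 to 35385290), *H2-T23* (36029773 to 36032855), *C920025E04Rik* (36109234 to 36111658) and *BC023719* (36111426 to 36117121). The symbol *C920025E04Rik* is an older name of *H2-T-ps*, which GENCODE calls an unprocessed pseudogene and RefSeq a protein-coding gene. GENCODE calls *BC023719* an antisense gene and RefSeq a transcribed pseudogene.

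RefSeq (GRCm38.p6) gives a promoter window, 250 bases before to 50 bases after the listed start, for 8 of the 10 genes. The windows of *H2-K1* (chr17:34000298-34000597, minus strand, the first of 2 listed), *H2-D1* (chr17:35262844-35263143, plus strand) and *H2-Q4* (chr17:35379367-35379666, plus strand) are shown because these heavy chain genes share much of a control region while their levels differed between libraries in unlike ways. Sequences run from 5′ to 3′. Capitals mark the 5 runs of at least 12 bases that all 3 windows share and, in *H2-K1* and *H2-D1*, a palindrome described below.
H2-K1: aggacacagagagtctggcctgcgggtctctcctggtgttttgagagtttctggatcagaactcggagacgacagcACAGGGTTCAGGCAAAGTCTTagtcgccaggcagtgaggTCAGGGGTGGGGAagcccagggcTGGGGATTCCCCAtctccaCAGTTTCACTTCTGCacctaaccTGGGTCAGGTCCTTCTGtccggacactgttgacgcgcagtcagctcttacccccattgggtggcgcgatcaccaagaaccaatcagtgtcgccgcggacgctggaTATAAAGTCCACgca
H2-D1: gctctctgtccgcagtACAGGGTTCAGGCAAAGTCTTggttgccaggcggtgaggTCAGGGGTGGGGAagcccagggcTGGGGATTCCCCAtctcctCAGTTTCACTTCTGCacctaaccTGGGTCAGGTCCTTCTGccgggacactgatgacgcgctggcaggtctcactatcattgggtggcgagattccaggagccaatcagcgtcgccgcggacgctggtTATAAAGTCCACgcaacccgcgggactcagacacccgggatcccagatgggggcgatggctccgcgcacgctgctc
H2-Q4: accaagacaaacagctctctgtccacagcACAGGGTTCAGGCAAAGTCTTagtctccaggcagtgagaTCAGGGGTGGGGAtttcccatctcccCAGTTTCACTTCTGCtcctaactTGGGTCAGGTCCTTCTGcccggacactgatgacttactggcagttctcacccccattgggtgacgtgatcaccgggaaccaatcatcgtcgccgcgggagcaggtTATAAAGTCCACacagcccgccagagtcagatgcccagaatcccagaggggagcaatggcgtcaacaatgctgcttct

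The palindrome was the longest one, around 1 central base, in the stretches that the windows of *H2-K1* and *H2-D1* share. It reads TGGGGATTCCCCA and holds a binding sequence of NF-kappaB, and 0.0122% of the 32851 promoter windows of this length held it on either strand. Of the runs shared by all 3 genes, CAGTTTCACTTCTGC holds the interferon response element of class I promoters, and 0.0213% of all windows held it on either strand. It began 19 bases after the start of the palindrome in both *H2-K1* and *H2-D1*, and in all 3 genes a reverse CCAAT began 77 bases after its start. The window of *Tap1* (chr17:34187306-34187605, plus strand) is shown because it is shared with a proteasome gene. Its capitals mark CCAAT, bound by NF-Y, and TGACG, the core of sites for CREB and ATF factors.
Tap1: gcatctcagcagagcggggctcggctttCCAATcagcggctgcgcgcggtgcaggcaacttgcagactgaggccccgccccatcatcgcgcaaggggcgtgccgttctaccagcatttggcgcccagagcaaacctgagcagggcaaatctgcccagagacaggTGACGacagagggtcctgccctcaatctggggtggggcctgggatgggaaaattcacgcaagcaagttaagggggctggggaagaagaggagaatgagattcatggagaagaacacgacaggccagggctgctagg

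These letters were common on either strand. CCAAT was in 8 of 8 windows against 37.4% of all windows, TGACG was in 5 against 20.8%, and the TATA box letters, TATAAA, were in 4 against 13.6%. The windows of *Tap1* and of *Psmb9*, an interferon-inducible proteasome subunit read in the opposite direction, shared 275 of 300 bases, their listed starts being 226 bases apart. Matches of letters describe these windows and are not binding sites measured here.

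All 10 genes passed the filter of at least 1 CPM in at least 3 libraries, which left 12955 genes, and *BC023719* passed it only through the MaeaCsf1r-Cre libraries. Their levels spanned from 0 to 2918 CPM. In 5 of the 10 every MaeaCsf1r-Cre library was above every control library (*H2-D1*, *Tap1*, *H2-K2*, *C920025E04Rik* and *BC023719*), and in 0 of the 10 every one was below. Over all tested genes the groups did not overlap in the higher direction for 2.49% and in the lower direction for 6.06%. Nothing is read from the count of 5, because the genes were chosen with these values known and *BC023719* could pass the filter only where it is high. Leaving out 1 library at a time gave 5 to 7 of the 10 genes, against 3.96 to 9.80% of all genes tested. Log2 fold changes below are those of limma's fit on log2(CPM + 1), MaeaCsf1r-Cre against control, with their standard errors (SE), and their median over all tested genes was -0.06.

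**Figure D1:**
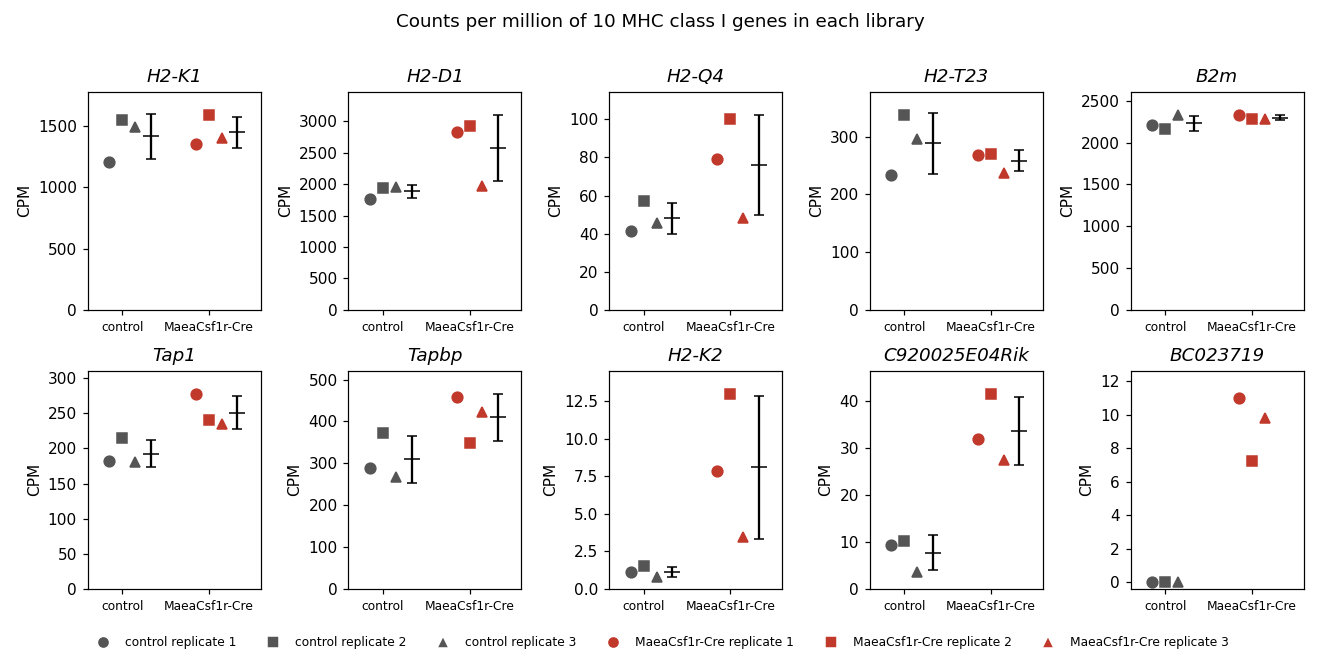
CPM of each of the 10 genes in the 3 control (grey) and 3 MaeaCsf1r-Cre (red) libraries, with the replicate number as the shape of the point and the mean ± SD of each group in black (not drawn for *BC023719*, listed at 0 in control). *H2-D1* and *H2-Q4* in MaeaCsf1r-Cre replicate 3, at 1978 and 48.1 CPM, lie near the control libraries, while *BC023719* is present in all 3 MaeaCsf1r-Cre libraries.

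The classical heavy chains differed from each other. *H2-K1*, which carries peptides to CD8 T cells, was at 1206, 1549 and 1490 CPM in control libraries and at 1352, 1590 and 1406 CPM in MaeaCsf1r-Cre libraries, here and below in the order of replicates 1, 2 and 3. The groups overlapped, with means of 1415 ± 183 and 1449 ± 125 CPM (SD, n = 3 each) and a log2 fold change of 0.04 (SE 0.15), which was -0.01 after quantile normalization. *H2-D1*, the other classical heavy chain of the reference strain, was at 1764, 1933 and 1956 CPM in control and at 2836, 2918 and 1978 CPM in MaeaCsf1r-Cre libraries. Replicates 1 and 2 of MaeaCsf1r-Cre stood far above the controls, and replicate 3 exceeded the highest control by less than the controls differed among themselves. The means were 1884 ± 105 and 2577 ± 521 CPM (SD, n = 3 each), giving a log2 fold change of 0.43 (SE 0.18). It was 0.35 without MaeaCsf1r-Cre replicate 1, 0.33 without replicate 2 and 0.61 without replicate 3.

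Because the CPM of *H2-D1* and *H2-K1* come from the same library, their quotient does not depend on the scaling. It was 1.46, 1.25 and 1.31 in control libraries and 2.10, 1.84 and 1.41 in MaeaCsf1r-Cre libraries. The quotient of MaeaCsf1r-Cre replicate 3 lay inside the control range and the other two lay above it. The transcripts of *H2-K1* and *H2-D1* were 91.2% identical over 1470 aligned bases. Of the 150-base stretches of each representative transcript, 100% of *H2-K1* and 98.2% of *H2-D1* were found in no other gene, the rest of *H2-D1* being shared with *H2-Q1*. The reads were sequenced at 150 bases, and aligned reads may have been shorter after trimming. With stretches of 50 bases the shares were 91.2% for *H2-K1* and 85.7% for *H2-D1*.

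*B2m*, the light chain that every class I heavy chain needs for transport to the surface, had the highest CPM of the 10 genes in every control library, while *H2-D1* was above it in MaeaCsf1r-Cre replicates 1 and 2. It was at 2206, 2158 and 2329 CPM in control and at 2329, 2277 and 2283 CPM in MaeaCsf1r-Cre libraries, a span of 1.08-fold from the lowest library to the highest. The groups overlapped, and the log2 fold change was 0.04 (SE 0.13), -0.14 after quantile normalization and -0.05 after correction for transcript length.

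The non-classical heavy chains also differed from each other. *H2-Q4*, a gene of the Q region with restricted polymorphism, was at 41.4, 57.1 and 45.6 CPM in control and at 79.4, 100.4 and 48.1 CPM in MaeaCsf1r-Cre libraries. As with *H2-D1*, replicates 1 and 2 were above every control, whereas replicate 3 was within the control range. The log2 fold change was 0.60 (SE 0.26), and it was 0.37 without MaeaCsf1r-Cre replicate 2 and 0.89 without replicate 3. *H2-T23* encodes Qa-1, which presents leader peptides of other class I chains to receptors of NK cells. Its CPM was 233, 337 and 295 in control and 268, 270 and 237 in MaeaCsf1r-Cre libraries, with overlapping groups and a log2 fold change of -0.14 (SE 0.15). It was -0.29 without control replicate 1 and -0.02 without control replicate 2.

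The peptide loading genes had their high values in a different set of libraries. *Tap1*, a subunit of the peptide transporter, was at 183, 215 and 180 CPM in control and at 278, 240 and 235 CPM in MaeaCsf1r-Cre libraries. All 3 MaeaCsf1r-Cre libraries were above all 3 controls, with means of 193 ± 19.4 and 251 ± 23.5 CPM (SD, n = 3 each) and a log2 fold change of 0.38 (SE 0.13). *Tapbp*, which encodes tapasin, was at 288, 372 and 267 CPM in control and at 458, 347 and 422 CPM in MaeaCsf1r-Cre libraries. Control replicate 2 was above MaeaCsf1r-Cre replicate 2, so the groups overlapped, and the log2 fold change was 0.41 (SE 0.17).

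The pseudogenes were low and showed the widest spans. *H2-K2*, a transcribed pseudogene beside *H2-K1*, was at 1.09, 1.499 and 0.810 CPM in control and at 7.87, 13.0 and 3.44 CPM in MaeaCsf1r-Cre libraries. Each MaeaCsf1r-Cre library exceeded the control of the same number, by 7.24-fold, 8.66-fold and 4.24-fold in replicates 1, 2 and 3. The log2 fold change was 1.96 (SE 0.40), and 2.58 with a pseudocount of 0.1 in place of 1. *C920025E04Rik* was at 9.35, 10.22 and 3.56 CPM in control and at 31.8, 41.4 and 27.3 CPM in MaeaCsf1r-Cre libraries, again without overlap and in all 3 replicates. The means were 7.71 ± 3.62 and 33.5 ± 7.20 CPM (SD, n = 3 each), giving a log2 fold change of 2.07 (SE 0.35) that ranged from 1.66 to 2.31 over the alternatives tried. Its transcript was 95.7% identical to that of *H2-T23* over 1067 bases. No 150-base stretch was shared with another gene, but 29.4% of the stretches of 50 bases were, most often with *H2-T23*.

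*BC023719* was listed at 0 in the 3 controls and at 11.03, 7.27 and 9.83 CPM in MaeaCsf1r-Cre replicates 1, 2 and 3. In limma's fit 1 of the 12955 genes (0.00772%) had an adjusted p under 0.05, with and without the replicate number as a block, while 517 genes (3.99%) had an unadjusted p under 0.05, or 1805 (13.9%) with the block. The gene was *BC023719*, and nothing is read from this, since it was chosen on these values and passed the filter only through the libraries in which it is high. No gene was left without control replicate 2 or control replicate 3, with 266 and 331 genes at an unadjusted p under 0.05. Since all 37 rows of mitochondrial genes are also listed at 0, a 0 in this table is not a measured absence, and no fold change is given. Of the 2 exons, the second, of 925 bases (36116197 to 36117121), lies wholly inside an exon of an *H2-T10* transcript on the opposite strand. Only 5.67% of the 150-base stretches of *BC023719* were found in no other gene, and 94.3% were shared with *H2-T10*. The library kits do not mark the strand, so reads of these genes cannot be told apart over that exon. *H2-T10*, annotated as a polymorphic class I pseudogene, was at 31.3, 36.9 and 4.98 CPM in control and at 11.5, 39.6 and 11.5 CPM in MaeaCsf1r-Cre libraries, and thus was above 0 in the control libraries in which *BC023719* was listed at 0.

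Levels of different genes were compared per kilobase of the representative transcript. *B2m* was first in all 6 libraries, at 2594 ± 102 CPM per kb in control and 2670 ± 33.2 CPM per kb in MaeaCsf1r-Cre HSCs (SD, n = 3 each). *H2-D1* (896 ± 49.9 CPM per kb in control) and *H2-K1* (874 ± 113 CPM per kb) followed, and their order in control was within their spread, *H2-K1* being the higher in control replicate 2. *H2-T23*, *Tapbp*, *Tap1*, *H2-Q4* and *C920025E04Rik* held ranks 4 to 8 in that order in every library. *H2-K2* and *BC023719* came last. In CPM, the 37 rows of class I heavy chain genes of the MHC together summed to 4362, 5013 and 4652 in control and to 5308, 5969 and 4512 in MaeaCsf1r-Cre libraries, with overlapping groups. *H2-D1* held 40.4, 38.6 and 42.0% of this sum in control and 53.4, 48.9 and 43.8% in MaeaCsf1r-Cre replicates 1, 2 and 3.

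**Figure D2:**
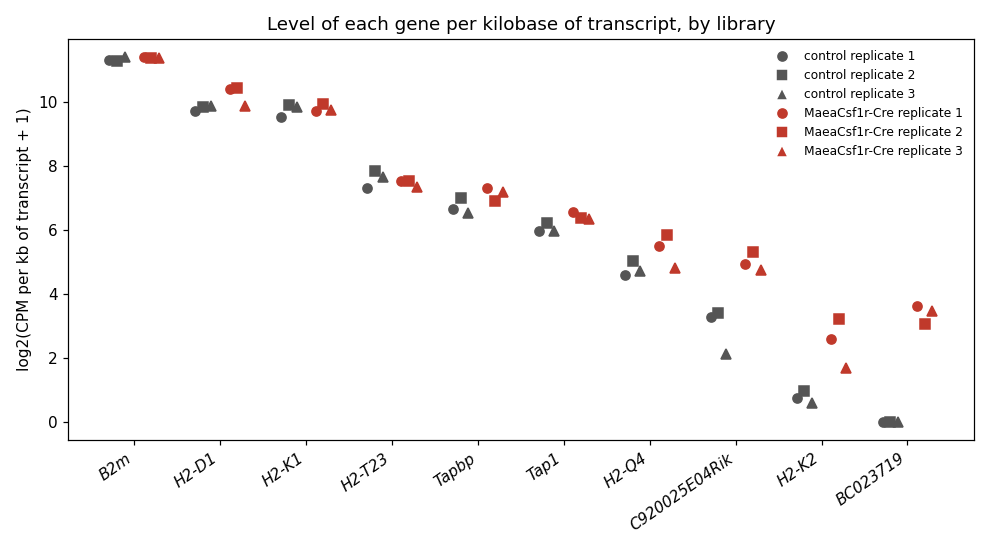
Level of each gene as log2(CPM per kb of transcript + 1) in each library, with genes ordered by their control mean. The order of the 8 highest genes is the same in all 6 libraries except for *H2-D1* and *H2-K1*, which change places in control replicate 2.

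The MaeaCsf1r-Cre libraries did not behave alike across the MHC. In the 3.36 Mb from *Tapbp* to *H2-M3*, 132 rows reached 1 CPM in at least 1 library. Of these, 24 in MaeaCsf1r-Cre replicate 1 and 23 in replicate 2, but 9 in replicate 3, lay more than 1 from the control mean of log2(CPM + 1), above it in 15, 20 and 8. In control replicates 1, 2 and 3, whose own values enter that mean, 0, 3 and 4 rows did. The following genes are named after their values were seen. *H2-Q1* was at 0.925, 0.856 and 0.0916 CPM in control and at 14.0, 18.01 and 0.413 CPM in MaeaCsf1r-Cre libraries. *H2-Q2* was at 0.0608, 0 and 0 CPM in control and at 9.48, 10.7 and 0.923 CPM in MaeaCsf1r-Cre libraries. *Gm8909*, a class I gene 53.0 kb beyond the start of *BC023719*, was at 0.152, 0.373 and 0.138 CPM in control and at 22.3, 23.5 and 0.188 CPM in MaeaCsf1r-Cre libraries. *H2-D1* and *H2-Q4* had their high values in the same libraries, whereas *C920025E04Rik* and *BC023719* were high in all 3 MaeaCsf1r-Cre libraries. The values are totals per gene and carry no information on alleles. Whether the pools of mice carried the same MHC haplotype was not tested, and the values of all rows in this region are to be read with that limit. Among them are *H2-D1*, *H2-Q4*, *H2-Q1* and *Gm8909* in MaeaCsf1r-Cre replicates 1 and 2. Also among them are *H2-K2*, *C920025E04Rik*, *BC023719*, *H2-Q2*, *H2-T3* and the class II genes *H2-Aa* and *H2-Ab1* in all MaeaCsf1r-Cre libraries.

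**Figure D3:**
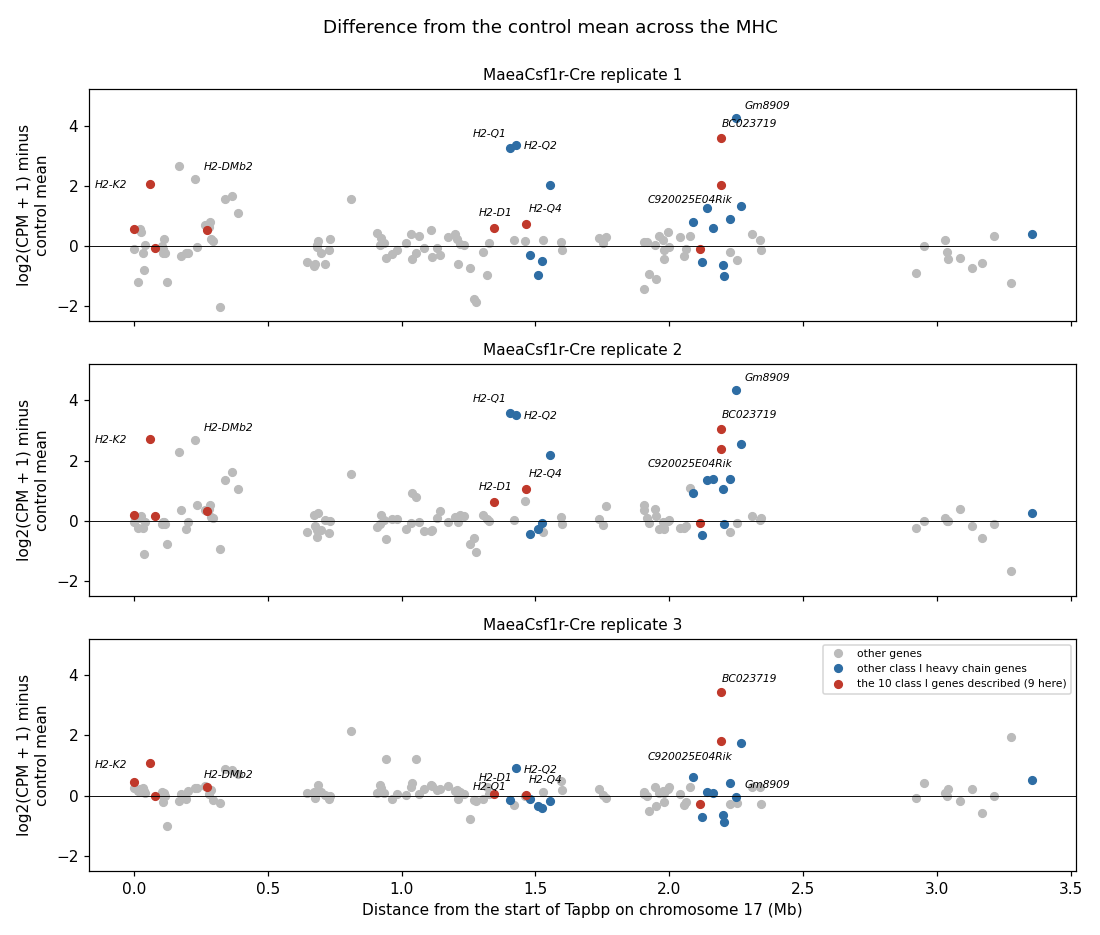
Each point is a gene between *Tapbp* and *H2-M3* with at least 1 CPM in a library, placed by its distance in Mb from the start of *Tapbp* (x axis) and by log2(CPM + 1) in 1 MaeaCsf1r-Cre library minus the mean of the 3 controls (y axis). *H2-Q1* and *Gm8909* lie far above 0 in replicates 1 and 2 only. *H2-Q2* lies far above 0 in replicates 1 and 2 and less far above it in replicate 3 (0.915). *BC023719* and *C920025E04Rik* lie above 0 in all 3 panels.

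Of the other class I heavy chain genes of the MHC, no tested gene was called. Of 38 listed, 31 had a row, 10 of them at 0 in every library, and 12 were tested. *H2-Q1*, *H2-Q2*, *Gm8909* and *Gm11127* were not among the 12, since they reached 1 CPM in fewer than 3 libraries. In limma's fit 0 of the 12 had an adjusted p under 0.05 with or without the block. An unadjusted p under 0.05 was found for 4 of the 12, against 3.99% of all tested genes. Their median log2 fold change was 0.16, and it was -0.05 without control replicate 3 and -0.18 with a filter at 10 CPM. The 2 most abundant, *H2-Q7* and *H2-Q6* (Qa-2), did not follow *H2-D1*. *H2-Q7* was at 548, 491 and 438 CPM in control and at 349, 471 and 373 CPM in MaeaCsf1r-Cre libraries, and *H2-Q6* at 409, 464 and 311 against 198, 322 and 308 CPM. *H2-T22*, a ligand of some gamma-delta T cell receptors, was at 48.0, 64.8 and 62.6 CPM in control and at 39.3, 41.3 and 35.3 CPM in MaeaCsf1r-Cre libraries, with no overlap and a log2 fold change of -0.58 (SE 0.16, limma adjusted p = 0.967, and 0.215 with the block). *H2-T3*, which encodes the thymus leukaemia antigen, was at 4.25, 9.24 and 0.643 CPM in control and at 10.18, 25.3 and 13.9 CPM in MaeaCsf1r-Cre libraries (log2 fold change 1.88, SE 0.63, limma adjusted p = 0.967, and 0.198 with the block). *H2-M3*, which presents N-formylated peptides, had a log2 fold change of 0.39 (SE 0.16, limma adjusted p = 0.967) and no overlap. Within 100 kb of *BC023719* the table has 30 rows, of which 8 other than the 10 genes were tested, and 0 were called in limma's fit. The 8 were *A930015D03Rik*, *H2-T24*, *H2-T22*, *H2-Bl*, *H2-T10*, *Gm19684*, *Gm10499* and *H2-T3*. *Gm8909* and *Gm11127* also lie there and were not tested.

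**Figure D4:**
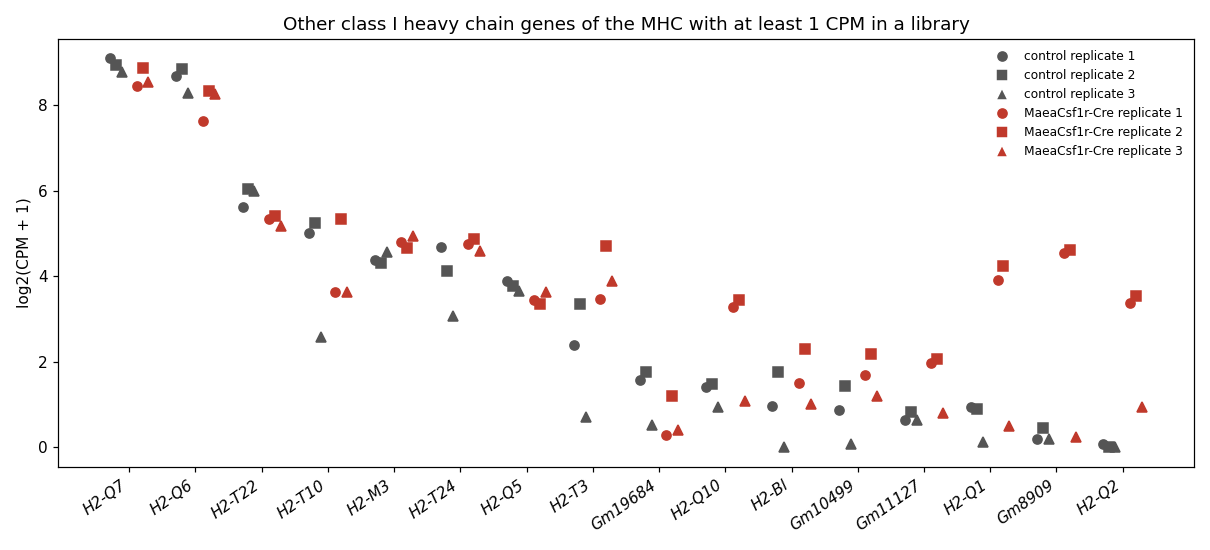
log2(CPM + 1) in each library of the 16 other class I heavy chain genes of the MHC with at least 1 CPM in a library, ordered by their control mean. *H2-Q10*, *H2-Q1*, *Gm8909* and *H2-Q2* are high in MaeaCsf1r-Cre replicates 1 and 2. MaeaCsf1r-Cre replicate 3 stays near the controls for *H2-Q10*, *H2-Q1* and *Gm8909*, but is above every control for *H2-Q2* (0.923 CPM).

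Genes that supply or load peptides were described from lists chosen by function. Of 13 immunoproteasome, activator and peptidase genes, all tested, 0 were called and 3 had an unadjusted p under 0.05, 4 did not overlap in the higher direction and 1 in the lower, and the median log2 fold change was 0.13 (-0.02 without MaeaCsf1r-Cre replicate 1). Over all tested genes, 3.99% had an unadjusted p under 0.05, and 2.49% and 6.06% did not overlap in the higher and lower direction. *Psmb10*, an interferon-inducible catalytic subunit, was at 67.1, 96.0 and 81.2 CPM in control and at 153, 114 and 114 CPM in MaeaCsf1r-Cre libraries (limma adjusted p = 0.967). *Psmb9*, the neighbour of *Tap1* whose promoter window overlaps the one printed above, was at 122, 138 and 116 CPM in control and at 202, 161 and 155 CPM in MaeaCsf1r-Cre libraries (log2 fold change 0.45, SE 0.14, limma adjusted p = 0.967). *Tap1* and *Psmb9* thus both had their highest value in MaeaCsf1r-Cre replicate 1, as did *Psme2*, a subunit of the PA28 activator (83.1 CPM there against at most 47.7 CPM in a control). Of 11 other loading and folding genes, all tested, 0 were called and 1 had an unadjusted p under 0.05, and the median log2 fold change was 0.02 (-0.02 without control replicate 2 and -0.03 without MaeaCsf1r-Cre replicate 1). *Tap2*, the partner of *Tap1*, was at 156, 169 and 141 CPM in control and at 182, 170 and 175 CPM in MaeaCsf1r-Cre libraries. *Tapbpl*, which encodes the peptide editor TAPBPR, had a log2 fold change of 0.67 (SE 0.26, limma adjusted p = 0.967) with overlapping groups. The general chaperones *Calr* and *Canx* had log2 fold changes of 0.03 and -0.09 (SE 0.14 and 0.18). For *Erap1* and *Lnpep*, also of this list, they were 0.28 and -0.41 (SE 0.16 and 0.22), with overlapping groups.

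Regulators of class I genes and interferon-stimulated genes gave no called gene either. Of 25 transcription and signalling genes tested, 0 were called in limma's fit and 0 had an unadjusted p under 0.05. *Nlrc5*, the class I transactivator, overlapped between the groups, with a log2 fold change of 0.24 (SE 0.18). The 3 genes of this list with the smallest unadjusted p were *Ifnar1* (log2 fold change -0.37, SE 0.19), *Creb1* (-0.32, SE 0.16) and *Rfx5* (-0.34, SE 0.19). Their groups overlapped as well. Of the 25 genes, 12 had a positive and 13 a negative log2 fold change. Of 29 interferon-stimulated genes tested, 0 were called and 9 had an unadjusted p under 0.05, against 3.99% of all tested genes. Their median log2 fold change was -0.08, changing sign to 0.01 without control replicate 3 and to 0.02 with a filter at 10 CPM. Of the 29 genes, 4 did not overlap in the higher direction and 3 in the lower, against 2.49% and 6.06% of all tested genes. The GTPase gene *Igtp* was at 88.5, 132 and 68.1 CPM in control and at 465, 192 and 175 CPM in MaeaCsf1r-Cre libraries (limma adjusted p = 0.967). *Iigp1*, of the same family, was at 44.9, 101 and 57.0 CPM in control and at 354, 117 and 131 CPM in MaeaCsf1r-Cre libraries. *Ifit1*, an antiviral RNA-binding protein, was at 7.76, 12.4 and 14.8 CPM in control and at 2.31, 3.84 and 7.08 CPM in MaeaCsf1r-Cre libraries (log2 fold change -1.28, SE 0.36, limma adjusted p = 0.967, and 0.101 with the block). The highest *Igtp* and *Iigp1* values were in MaeaCsf1r-Cre replicate 1, which also had the highest *Tap1* and *Tapbp*, but not the highest *H2-D1*.

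**Figure D5:**
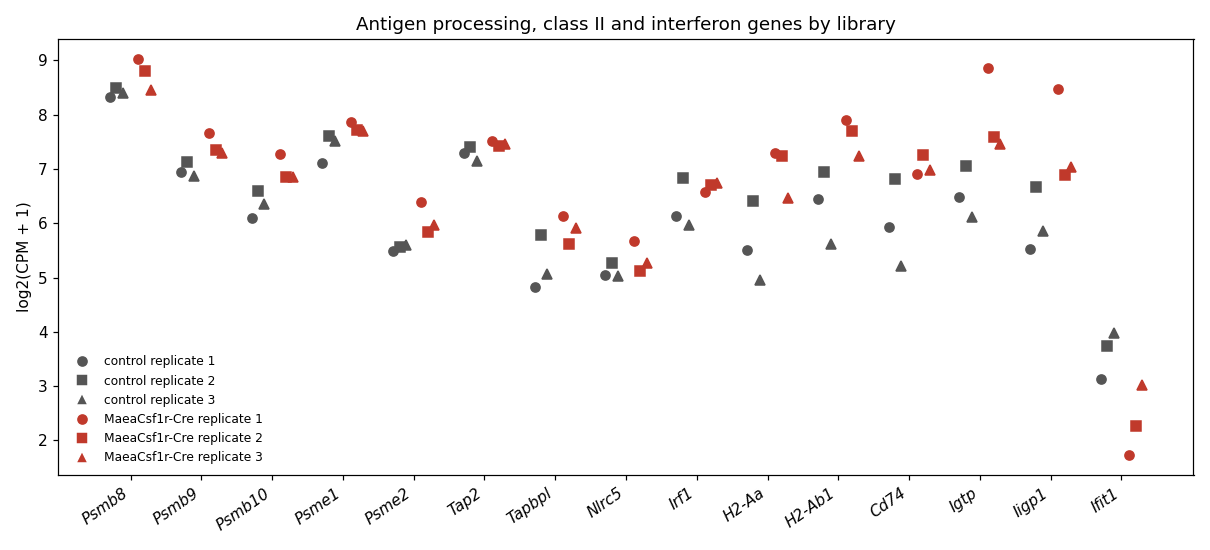
log2(CPM + 1) in each library of 15 genes of antigen processing, class I regulation, class II presentation and the interferon response. The 15 are a part of the lists, which were chosen with earlier results of these data known. Genes not drawn include *H2-Ob* (log2 fold change -1.08) and *Npepps* (-0.18). *Igtp* and *Iigp1* are highest in MaeaCsf1r-Cre replicate 1, and *Ifit1* is lower in all 3 MaeaCsf1r-Cre libraries than in the controls.

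Class II genes, which present peptides from outside the cell to CD4 T cells, had the highest median of the lists, 0.82 on the log2 scale over 11 tested genes, against -0.06 over all genes, and it was 0.37 without control replicate 3. In limma's fit 0 of the 11 were called and 5 had an unadjusted p under 0.05, against 3.99% of all tested genes. *H2-Ab1* was at 86.4, 122 and 48.4 CPM in control and at 237, 206 and 149 CPM in MaeaCsf1r-Cre libraries, a log2 fold change of 1.26 (SE 0.32, limma adjusted p = 0.967, and 0.0842 with the block). *H2-Aa*, which encodes its partner chain, was at 44.3, 83.9 and 30.1 CPM in control and at 156, 150.3 and 87.3 CPM in MaeaCsf1r-Cre libraries (limma adjusted p = 0.967, and 0.0842 with the block). The invariant chain *Cd74* was at 59.8, 111 and 36.3 CPM in control and at 120, 151 and 125 CPM in MaeaCsf1r-Cre libraries. In these 3 of the 11 genes every MaeaCsf1r-Cre library was above every control, against 2.49% of all tested genes. *H2-Ob*, a chain of the class II modulator H2-O, went the other way, at 23.1, 28.6 and 13.5 CPM in control and at 4.28, 10.35 and 17.3 CPM in MaeaCsf1r-Cre libraries (log2 fold change -1.08, SE 0.46, limma adjusted p = 0.967). Beside them, the summed dendritic cell markers were at 21.0 to 39.6 CPM in control and 14.9 to 42.0 CPM in MaeaCsf1r-Cre libraries. Most of that sum came from *Zbtb46*, at 37.7, 18.5 and 20.7 CPM in control and at 41.0, 14.2 and 22.1 CPM in MaeaCsf1r-Cre libraries. The summed B cell markers were at 33.8 to 55.4 and 13.9 to 27.0 CPM, most of it from *Cd79b* and *Ighm*. The part of such cells in the class II values was not tested.

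Class I-like genes outside the MHC gave 0 called genes of 7 tested in limma's fit, none with an unadjusted p under 0.05, and a median log2 fold change of -0.28, which was -0.02 without MaeaCsf1r-Cre replicate 1. The antigen-presenting molecule *Mr1* was at 12.7, 18.3 and 16.3 CPM in control and at 8.62, 13.6 and 16.4 CPM in MaeaCsf1r-Cre libraries. *Fcgrt*, the neonatal Fc receptor, ranged from 29.1 to 43.6 CPM in control and from 8.27 to 71.3 CPM in MaeaCsf1r-Cre libraries. *Procr* was at 14.1, 39.3 and 22.6 CPM in control and at 7.61, 19.7 and 24.5 CPM in MaeaCsf1r-Cre libraries (log2 fold change -0.55, SE 0.47). Of 9 receptors that bind class I, 7 had a row, 3 of these were at 0 in all libraries, and the 1 tested was *Pirb*, an inhibitory receptor, at 2.29, 3.18 and 1.59 CPM in control and at 0.646, 0.643 and 1.46 CPM in MaeaCsf1r-Cre libraries (limma adjusted p = 0.967).

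Genes most like *H2-K1*, *H2-D1* and *B2m* were sought as a description, by Pearson's r with their mean log2(CPM + 1) over the 6 libraries. Only the 3 highest of all tested genes are named, so nothing is read from the size of r. They were *Atf4*, a transcription factor of the integrated stress response (r = 0.976), *Macrod1* (r = 0.974) and *Gm7336* (r = 0.959). *Atf4* was at 44.3, 60.8 and 55.6 CPM in control and at 72.7, 79.8 and 53.1 CPM in MaeaCsf1r-Cre libraries.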

How the data were processed

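RNA of sorted HSCs was sequenced by the authors from SMART-Seq v4 and Nextera XT libraries as single-ended reads of 150 bases. Per the methods and the submitters' processing notes, reads were aligned to mm10 with STAR 2.5.3a, quantified to Ensembl transcripts and normalised in Partek. The notes also name the trimming tool Trim Galore. The values deposited by the authors are CPM, with 0.0001 added to each, which was subtracted here. Of the reads used for scaling, 75.2 to 80.2% fell on listed genes. Of values under 20 reads, 80.1 to 82.3% lay within 0.1 of a whole read, so counts were not recovered and no count test was run. The steps between low values gave the depth, which covers counting error only.

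Genes with at least 1 CPM in at least 3 libraries were fitted on log2(CPM + 1) with limma 3.58.1 in R 4.3.3 (mean-variance trend, MaeaCsf1r-Cre against control, 3 libraries each, two-sided, Benjamini-Hochberg over 12955 genes, threshold 0.05). A fold change on this scale understates low genes. Same-numbered libraries deviated together across genes (Pearson's r of 0.627, 0.523 and 0.397 for numbers 1, 2 and 3), so fits were repeated with the number as a block. The number comes from the sample titles, and no source used here says that it marks a shared litter or day.

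The 10 genes, the lists and the markers were chosen with earlier results of these data known. Genes named beside the 10 were up to 3 with the smallest unadjusted p in each list, those called, those near *BC023719*, the 3 most alike and markers, others being named after their values were seen. *H2-T-ps* was left out of the heavy chain list because it is *C920025E04Rik*. The values of 1 gene of the signalling list are not reported here, and it was left out of that list. Positions and transcripts come from GENCODE for GRCm38, where 44120 of 46959 rows matched, and promoters from RefSeq. These annotations are newer than that of the files, and 27 symbols had become dates. Python 3.11.15, numpy 2.4.6, pandas 2.3.3, Biopython 1.88 and matplotlib 3.10.9 were used.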

Additional observations from a re-analysis of the deposited data

How the results depend on the processing

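The alternatives were no filter, a filter at 10 CPM, a pseudocount of 0.1, median ratio scaling, quantile normalization, the replicate block, no mean-variance trend, transcript length correction with and without the block, and each library left out in turn. The count of genes called, 1 with and without the replicate block, became 10 with no filter and 0 with the filter at 10 CPM, where *BC023719* could not be tested, and ranged from 0 to 3 when 1 library was left out. At an unadjusted p under 0.05 the filter at 10 CPM left 302 genes. The count of 3 came without MaeaCsf1r-Cre replicate 3, and control replicates 2 and 3 each brought it to 0. The cause was not tested. In each list 0 genes were called under each alternative but the length corrections, for which list calls were not counted. The count of genes without overlap, 5 of 10, was 5 after median ratio scaling and 5 to 7 with 1 library left out, the last chosen after seeing the data. The log2 fold changes of *H2-K1* and *B2m* changed sign under 3 of 15 alternatives each, and those of the other 7 genes given one kept theirs. Median ratio scaling moved the median of all genes from -0.06 to 0.00. With 50-base stretches the share found in no other gene was 60.8% for *H2-Q4*, 70.2% for *H2-T23* and 70.6% for *C920025E04Rik*. With 3 libraries a group of pooled mice, small differences in the abundant genes lie within the spread.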

Other observations

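*Rps18*, a ribosomal protein gene 0.0361 Mb from the start of *Tapbp*, was at 495, 375 and 384 CPM in control libraries and at 238, 193 and 461 CPM in MaeaCsf1r-Cre replicates 1, 2 and 3. *Gm10260* on chromosome 13, whose transcript was 99.1% identical to that of *Rps18* over 545 bases, was under 0.01 CPM in the 3 control libraries and in MaeaCsf1r-Cre replicate 3, and at 169 and 152 CPM in MaeaCsf1r-Cre replicates 1 and 2. *Rps18-ps3*, another copy (99.3% identical over 456 bases), was at 48.1, 37.3 and 41.7 CPM in control and at 2.56, 1.63 and 52.7 CPM in MaeaCsf1r-Cre libraries. The sum of the 3 rows was 543, 412 and 425 CPM in control and 409.6, 347 and 513 CPM in MaeaCsf1r-Cre libraries, so the rows differed in how the sum was divided more than in the sum. Within the MHC, *H2-DMb2*, a class II chaperone gene, was at 1.49, 3.02 and 1.91 CPM in control and at 13.4, 18.8 and 2.70 CPM in MaeaCsf1r-Cre libraries, and *H2-Q10*, best known as a class I gene of liver, at 1.67, 1.78 and 0.929 against 8.77, 9.99 and 1.13 CPM. These genes were chosen after their values were seen.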
